A study of Homo sapiens with 96 samples.

Results

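Ribosome footprints are the pieces of mRNA held inside translating ribosomes, and their number on a gene's mRNA reflects both how much of the mRNA there is and how heavily it is loaded. The libraries described here are the 24 wild-type footprint libraries of the 96 libraries in the series, taken at 12 circadian times from CT00 to CT22 (in h) with 2 replicates each. They were chosen by their labels, and each gene was fitted with a wave of 24 h, with and without a linear drift over the day and with and without a term for the replicate. The cells were U2-OS, a human osteosarcoma line that in every group carried a luciferase reporter under the Per2 promoter. Their clocks were set with 0.1 µM dexamethasone, a synthetic glucocorticoid, in medium with 0.1 mM luciferin, and CT00 was collected 24.5 h later, at the low point of the reporter according to the labels. Collection then followed every 2 h, each after 3 min in cycloheximide at 100 µg/mL, which stalls ribosomes on the mRNA. The 24 Bmal1 knockdown footprint libraries came from cells seeded at 560000 per plate that received 120 pmol of an siRNA mix against Bmal1 (ARNTL in the files). More wild-type cells were seeded per plate, without siRNA, while the labels give the same confluence for both groups. No control siRNA is among the labels, so the knockdown, the transfection and the number of cells seeded cannot be told apart. The 24 wild-type total RNA libraries, which measure mRNA abundance, came from the same treatment and times.

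The circadian clock of mammalian cells is a delayed feedback loop. BMAL1 (encoded by ARNTL) pairs with CLOCK or NPAS2 and switches on genes with E-box motifs, among them the Period and Cryptochrome genes, whose proteins return to block the pair. A second arm runs through the nuclear receptors REV-ERB, encoded by NR1D1 and NR1D2, which repress ARNTL, while the related ROR receptors activate it. DBP, TEF and HLF activate, and NFIL3 represses, a further set of genes through D-box motifs.

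The promoters of the genes whose footprints kept a 24-h wave beside a drift are shown because their peaks fall at different times of the day. A promoter was found in RefSeq (GRCh38.p14) for 17 of the 18 clock genes tested, with ARNTL listed there under its current symbol BMAL1. The 250 bases before each start were searched on both strands for the E-box CACGTG, the E'-box CACGTT, the D-box TTATGNAA or TTACGTAA, and the ROR element TAGGTCA or TGGGTCA. These were held by 6.49%, 4.5%, 3.27% and 4.8% of all 27305 promoters, in that order. At least 1 of the 4 clock motifs stood in 8 of the 17 clock gene promoters, against 17.7% of all promoters, and no match overlapped another motif. The interferon element, 2 copies of TTTC with 2 bases between them, was searched for IFIT1 and was held by 3.07% of all promoters. Capitals below mark the matches, some of which read in reverse complement, and each sequence reads 5′ to 3′ on the gene's own strand and ends 1 base before the start.

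PER2, at chr2:238288611-238288860 (minus strand), holds an E'-box that begins 197 bases before the start.
PER2: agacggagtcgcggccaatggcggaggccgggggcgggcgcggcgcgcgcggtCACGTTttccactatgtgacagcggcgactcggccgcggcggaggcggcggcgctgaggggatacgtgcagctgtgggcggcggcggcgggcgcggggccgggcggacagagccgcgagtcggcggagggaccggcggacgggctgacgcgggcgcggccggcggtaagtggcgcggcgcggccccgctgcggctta
PER3, at chr1:7784041-7784290 (plus strand), holds a D-box that begins 177 bases before the start.
PER3: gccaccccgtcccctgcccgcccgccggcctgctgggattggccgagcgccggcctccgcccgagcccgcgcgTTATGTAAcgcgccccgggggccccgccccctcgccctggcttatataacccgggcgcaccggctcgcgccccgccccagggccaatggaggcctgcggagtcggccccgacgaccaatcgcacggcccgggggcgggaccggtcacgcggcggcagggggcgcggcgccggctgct
CRY1, at chr12:107093550-107093799 (minus strand), holds an E'-box that begins 89 bases before the start.
CRY1: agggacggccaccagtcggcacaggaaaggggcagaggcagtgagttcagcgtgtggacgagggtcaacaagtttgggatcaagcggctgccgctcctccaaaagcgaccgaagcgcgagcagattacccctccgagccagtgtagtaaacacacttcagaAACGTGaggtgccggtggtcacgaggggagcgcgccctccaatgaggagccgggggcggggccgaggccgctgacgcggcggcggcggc
NR1D1, at chr17:40100590-40100839 (minus strand), holds an E'-box that begins 168 bases before the start.
NR1D1: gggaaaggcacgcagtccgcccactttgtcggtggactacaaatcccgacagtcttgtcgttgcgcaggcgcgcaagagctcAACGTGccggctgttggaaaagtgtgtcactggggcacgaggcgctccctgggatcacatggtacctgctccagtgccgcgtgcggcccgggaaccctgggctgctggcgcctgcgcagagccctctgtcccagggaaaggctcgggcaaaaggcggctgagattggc
IFIT1, at chr10:89392373-89392622 (plus strand), holds 2 interferon elements that begin 116 and 103 bases before the start.
IFIT1: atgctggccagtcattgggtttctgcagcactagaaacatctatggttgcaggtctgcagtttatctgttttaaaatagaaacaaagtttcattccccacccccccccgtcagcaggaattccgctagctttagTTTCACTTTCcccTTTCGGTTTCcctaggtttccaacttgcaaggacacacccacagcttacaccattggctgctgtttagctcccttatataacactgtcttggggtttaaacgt
ARNTL, at chr11:13277540-13277789 (plus strand), holds none of the letters searched in this window.
ARNTL: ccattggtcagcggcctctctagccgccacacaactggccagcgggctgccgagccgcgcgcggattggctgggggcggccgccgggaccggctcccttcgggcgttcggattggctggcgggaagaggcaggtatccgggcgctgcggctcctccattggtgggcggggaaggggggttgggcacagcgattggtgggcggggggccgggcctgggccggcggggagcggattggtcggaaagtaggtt
CRY2, the remaining gene of the set, also had no match in its 250 bases. A match is a description of these letters, and binding was not measured.

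The wild-type footprint libraries held 2.50 to 5.82 M reads (M, mega), with a median of 4.08 M, and 12851 to 14074 genes had a read. A floor of 3 reads, which covers counting error only, was worth 0.515 to 1.20 CPM, reads scaled to a common library size, in these libraries. Knockdown footprints held 2.60 to 4.32 M reads and wild-type total RNA 14.6 to 17.6 M. Replicates of a time differed by more than counting error, the chi-square divided by its degrees of freedom being 2.74 to 8.06, and nothing in the labels says that they were separate cultures, so p-values measure the spread between these libraries, which may be technical. Replicate 2 at CT02 stood apart: it had the fewest genes with a read (12851, against at least 13266 in the others), a residual SD around the fitted wave of 0.48 on the log2 scale (0.19 to 0.34 in the others) and a correlation with the median profile of 0.966 (at least 0.983 in the others). Counts without it are given beside the results. Levels of matrix and bone lineage genes were uneven. The collagen gene COL1A1 stood at 1712 to 3539 CPM and the transcription factor gene RUNX2 at 23.8 to 59.7 CPM. COL1A2 (2.01 to 8.94 CPM), COL3A1 (1.52 to 11.8 CPM), ALPL (1.42 to 7.62 CPM) and POSTN (0 to 2.01 CPM) were low. The osteoblast gene SP7 had no read, and BGLAP and IBSP had a median of 0 CPM. The summed level of 9 epithelial markers was 3.64 to 28.6 CPM and that of 10 blood and endothelial markers 6.95 to 16.8 CPM, with HBB and HBA1 at 0 throughout, while 9 neuronal markers summed to 473 to 609 CPM, mostly TUBB3.

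A gene's wave is given by its amplitude, how far the fitted peak lies above the fitted mean in log2 CPM, and by its peak time, each with its standard error. A gene counts as called where limma-trend's F test of the cosine and sine passed 0.05 after Benjamini-Hochberg adjustment over all genes tested, and adjusted p-values below are from that test. Because 1 day was sampled, a steady rise appears as a wave peaking at CT 17 and a steady fall as one peaking at CT 5. A straight line and its fitted wave correlate at 0.791.

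Without a drift term, 768 of 11378 genes were called (6.75%), with amplitudes of 0.07 to 1.81 and a median of 0.23. Their peaks gathered at the 2 times that a straight line gives: 308 lay between CT03 and CT07 and 396 between CT15 and CT19, together 91.7%, and 64 lay elsewhere. In the fit with a linear drift, 7 genes were called (0.0615%), all of them among the 768. They were ARNTL, PER2, PER3, CRY1, CRY2, NR1D1 and IFIT1, so 6 of the 7 are core clock genes. At an unadjusted p of 0.05, 2416 genes passed without drift and 472 with it. Leaving out replicate 2 at CT02 gave 640 calls without drift, 591 of them among the 768, and the 7 genes again with drift.

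**Figure D1:**
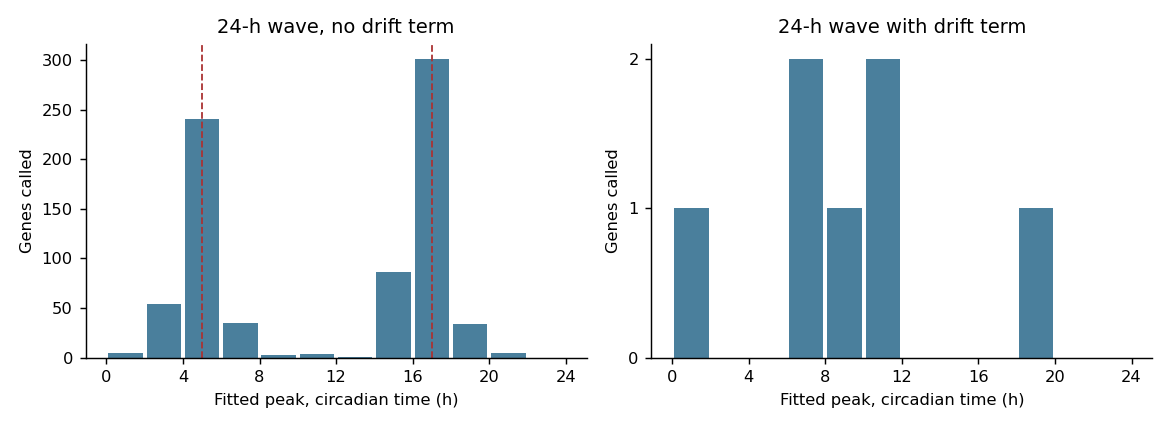
Number of genes called in wild-type footprints (y axis) by fitted peak time in bins of 2 h (x axis, circadian time in h), for the fit without a drift term (left) and with it (right, on its own scale). Dashed lines mark CT 5 and CT 17, the peaks that a steady fall and a steady rise give. The bins from CT 4 to CT 6 and from CT 16 to CT 18 hold 240 and 301 genes on the left. On the right, the bins that begin at CT 6, CT 8 and CT 10 hold 2, 1 and 2 of the 7 genes. Those that begin at CT 0 and CT 18 hold 1 each.

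Fitted alone without drift, replicate 1 gave 135 calls and replicate 2 gave 477, and 76 genes were called in both, or 56.3% of the calls of replicate 1 and 15.9% of those of replicate 2. Of the 768 genes, 751 had peaks within 4 h of each other in the separate fits, with a median gap of 1.11 h, but they were called on both replicates together, which favours genes whose replicates share a peak time. With drift, replicate 1 alone gave 59 calls and replicate 2 alone 14. ARNTL, PER3 and NR1D1 were called with drift in each replicate alone. PER2, CRY1 and CRY2 were called in replicate 1 alone and IFIT1 in replicate 2 alone.

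ARNTL, the activator at the head of the loop, peaked late in the sampled day, when the Period genes were low. Its footprints ran from 6.53 to 28.1 CPM over the 24 libraries, with a median of 19.5 CPM. Replicates 1 and 2 read 8.35 and 11.2 CPM at CT06, 27.4 and 27.5 CPM at CT18, and 27.4 and 24.3 CPM at CT22, close to the 28.1 and 24.6 CPM at CT00. All 6 libraries from CT06 to CT10 lay below all 6 from CT18 to CT22. With drift the amplitude was 0.89 ± 0.12 (SE) with a peak at CT 19.3 ± 0.43 h, a 3.43-fold range from trough to peak (adjusted p = 2.5e-05). Without the CT00 libraries the call with drift was lost (adjusted p = 0.0612). NPAS2, the alternative partner of BMAL1, peaked in the same part of the day, at CT 21.9 ± 0.86 h with an amplitude of 0.41 ± 0.09, and was called without drift (adjusted p = 0.0154) but not with it (adjusted p = 0.435). It read 10.8 and 11.8 CPM at CT20 against 4.28 and 7.33 CPM at CT06. CLOCK (42.4 to 61.0 CPM) and ARNTL2 (6.78 to 13.2 CPM) were not called, with adjusted p-values of 0.462 and 0.372 without drift.

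Of the Period genes, whose proteins carry the repressing arm, PER3 and PER2 had the clearest waves. PER3 ranged over 23.5 to 97.9 CPM with a median of 49.4 CPM. It stood at 23.5 and 32.8 CPM at CT00, reached 97.9 and 61.0 CPM at CT10 and had come down to 37.3 and 37.2 CPM at CT18. The 4 libraries at CT08 and CT10 exceeded all 8 from CT16 to CT22. With drift its amplitude was 0.69 ± 0.08 with a peak at CT 8.7 ± 0.55 h (adjusted p = 2.5e-05), and the wave was larger in replicate 1 (0.89) than in replicate 2 (0.49). PER2 ranged over 2.81 to 30.4 CPM with a median of 13.6 CPM, from 2.81 and 8.77 CPM at CT00 to 30.4 and 19.4 CPM at CT06 and 6.40 and 11.1 CPM at CT18. The PER2 wave with drift had an amplitude of 0.95 ± 0.17 and a peak at CT 7.8 ± 0.67 h (adjusted p = 0.0119), with 1.38 in replicate 1 alone and 0.53 in replicate 2 alone. The lowest library, replicate 1 at CT00, and its partner weigh on the fit: without CT00 the call with drift was lost (adjusted p = 0.581), as it was without CT10 or CT12 (adjusted p = 0.078 and 0.0973). PER1, which also answers directly to glucocorticoids, ranged over 92.7 to 147 CPM. It was called without drift, with an amplitude of 0.17 ± 0.04 and a peak at CT 6.4 ± 0.98 h (adjusted p = 0.0359), and not with drift (adjusted p = 0.494).

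CRY1 and CRY2 encode the cryptochromes, the strongest repressors of the CLOCK and BMAL1 pair, and CRY1 came later. CRY1 ranged over 33.7 to 66.0 CPM with a median of 49.7 CPM. It read 33.7 and 39.0 CPM at CT00, 64.2 and 54.9 CPM at CT12 and 38.6 and 36.2 CPM at CT22. Both ends of the day were thus low and the middle high, and its slope over 22 h in the fit with drift was only -0.07. With drift its amplitude was 0.29 ± 0.05 with a peak at CT 11.8 ± 0.95 h (adjusted p = 0.00402), and without CT22 it was not called with drift (adjusted p = 0.17). CRY2 ranged over 8.03 to 30.4 CPM with a median of 15.4 CPM, read 30.4 and 16.1 CPM at CT06 and 8.03 and 8.48 CPM at CT00, and had an amplitude with drift of 0.61 ± 0.12 and a peak at CT 7.4 ± 0.64 h (adjusted p = 0.0119). Replicate 1 at CT06 held its highest value. CRY2 was not called with drift without CT00, CT08 or CT12 (adjusted p = 0.623, 0.0517 and 0.0521).

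**Figure D2:**
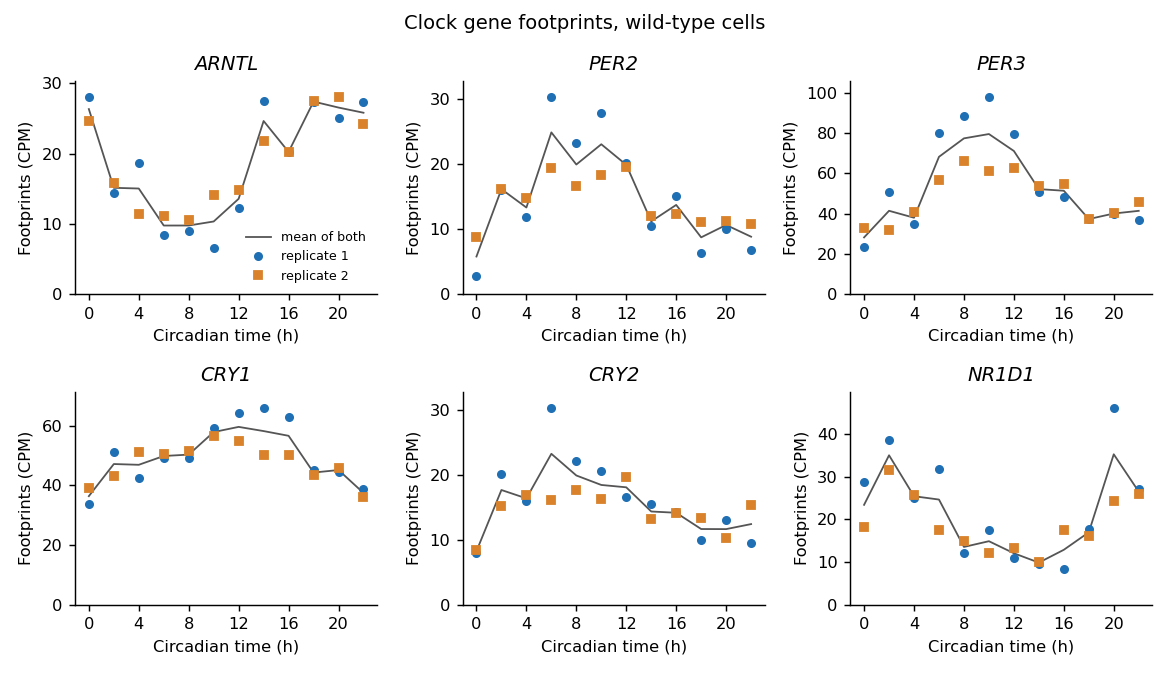
Footprints in CPM (y axis, from 0) of 6 clock genes at each circadian time (x axis, h) in wild-type cells; circles are replicate 1, squares replicate 2 and the line joins the means of both. ARNTL is lowest at CT06 to CT10 while PER2, PER3 and CRY2 are high there, and CRY1 is highest at CT12. NR1D1 is high at CT02 and CT20 and lowest at CT14.

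The REV-ERB genes peaked before the Period genes. NR1D1 ranged over 8.33 to 46.2 CPM with a median of 17.7 CPM, with 38.5 and 31.5 CPM at CT02, 9.65 and 10.1 CPM at CT14 and 46.2 and 24.3 CPM at CT20. Its amplitude with drift was 0.85 ± 0.13 with a peak at CT 1.5 ± 0.65 h (adjusted p = 0.000893). Without the CT22 libraries the NR1D1 amplitude with drift was larger, at 1.11 (adjusted p = 0.000662). NR1D1 overlaps the antisense gene THRA, and no source used here says whether the counting used strand, so reads of the 2 genes cannot be told apart. NR1D2 ranged over 51.6 to 144 CPM with a median of 78.6 CPM, and was at 51.6 and 63.3 CPM at CT14 and 144 and 125 CPM at CT02. It was called without drift, with an amplitude of 0.46 ± 0.06 and a peak at CT 4.4 ± 0.53 h (adjusted p = 0.000237). With drift the fitted wave had an amplitude of 0.51 ± 0.11 at CT 4.5 and was not called (adjusted p = 0.214). A peak at that time is also the one a steady fall gives, and NR1D2 had 67.2 and 75.0 CPM at CT22, against 78.5 and 73.8 CPM at CT00. RORA, whose product activates ARNTL, ranged over 1.60 to 9.59 CPM and was not called (adjusted p = 0.176).

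Among the D-box factors, TEF ranged over 8.89 to 30.6 CPM with a median of 15.3 CPM, with 30.6 and 24.2 CPM at CT06 and 10.8 and 9.62 CPM at CT00. It was called without drift, with an amplitude of 0.51 ± 0.10 and a peak at CT 7.3 ± 0.74 h (adjusted p = 0.00474), and with drift its adjusted p was 0.0814. DBP ranged over 8.43 to 36.8 CPM, and its replicates differed, with 36.8 and 19.2 CPM at CT06. DBP was not called (adjusted p = 0.462 without drift and 0.616 with it). NFIL3, the repressor of the same motif, peaked late, at CT 15.5 ± 0.68 h, with an amplitude of 0.29 ± 0.05 (adjusted p = 0.00209). It read 46.4 and 38.7 CPM at CT16 against 26.5 and 25.8 CPM at CT02, and with drift it was not called (adjusted p = 0.993). The repressors BHLHE40 and BHLHE41 (adjusted p = 0.844 and 0.0932) and the cell cycle kinase gene WEE1 (adjusted p = 0.668) were not called either. RORB and HLF had too few reads to be tested. CIART was not analysed here.

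In all, 11 of the 18 clock genes tested were called without drift and 6 with it, against 6.75% and 0.0615% of all genes tested. In the fit with drift their peaks followed the order NR1D1, CRY2, PER2, PER3, CRY1 and ARNTL. CRY2, PER2 and PER3, at CT 7.4, CT 7.8 and CT 8.7, followed so closely that the standard errors of neighbours overlap, and the others lay further apart. The order and the amplitudes were chosen for description with earlier results of these data known.

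The seventh gene with a wave beside a drift was IFIT1, an interferon-induced protein that binds viral RNA, here in cells that received no siRNA. Its footprints ranged over 12.0 to 26.5 CPM with a median of 16.9 CPM. They stood at 13.6 and 12.2 CPM at CT00, 26.5 and 23.2 CPM at CT12 and 15.8 and 12.0 CPM at CT22. The amplitude with drift was 0.41 ± 0.07 with a peak at CT 11.2 ± 1.02 h (adjusted p = 0.00707), and in total RNA 0.47 ± 0.05 at CT 8.8, the waves not differing by test (adjusted p = 1). IFIT1 was not called with drift without CT00, CT12 or CT22 (adjusted p = 0.102, 0.0762 and 0.0808). Of the 13 interferon-stimulated genes tested, 4 were called without drift, against 6.75% of all genes, and 1 with it, against 0.0615%. OASL, an oligoadenylate synthetase-like protein, peaked at CT 15.7 with an amplitude of 0.72 ± 0.15 (adjusted p = 0.0106), and IFIT3 at CT 1.9 with 0.54 ± 0.14 (adjusted p = 0.0291), so the called members did not share a peak time. Without replicate 2 at CT02, 2 of the 13 were called without drift.

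Of the 12 genes with the largest amplitudes under the naming rule, 11 peaked between CT14 and CT18 and 1, LCP1, peaked at CT 4.5. SEPP1, which encodes the selenium carrier selenoprotein P, read 20.4 and 20.4 CPM at CT22 and 1.20 and 1.13 CPM at CT00, with an amplitude of 1.81 ± 0.29 (adjusted p = 0.00231). CXCL14, a chemokine, read 71.0 and 35.4 CPM at CT22 and 10.6 and 5.66 CPM at CT00, with an amplitude of 1.18 ± 0.24 (adjusted p = 0.0117). These 2 genes were thus far from their starting level at the end of the day, unlike ARNTL. ZBTB16, a transcription factor induced by glucocorticoids, had an amplitude of 1.10 ± 0.20 (adjusted p = 0.00285), and IGFBP5, which binds insulin-like growth factors, 0.85 ± 0.12 (adjusted p = 0.000403). LCP1, an actin-bundling protein, went the other way, with 2.55 and 4.74 CPM at CT22 and 24.7 and 19.5 CPM at CT00, and an amplitude of 0.95 ± 0.17 (adjusted p = 0.00392). The others were RASAL1, BMF, PDGFB, ADAM22, B4GALNT3, HOXD1 and SLCO2A1, with amplitudes of 0.81 to 0.95. In their lowest library ADAM22, B4GALNT3 and ZBTB16 read 0, 0.253 and 0.331 CPM. SEPP1, RASAL1 and HOXD1 read 0.662 CPM there, BMF 0.687 CPM and PDGFB 0.848 CPM. These values lie near or under the floor of 3 reads, so those amplitudes rest partly on few reads. The lowest values of CXCL14, LCP1, IGFBP5 and SLCO2A1 were higher, at 2.55 CPM or more. With drift none of the 12 was called, the lowest adjusted p being 0.993. Without replicate 2 at CT02, PDGFB and HOXD1 missed the threshold (adjusted p = 0.0513 and 0.056), and in replicate 1 alone IGFBP5 was the only 1 of the 12 called.

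Of 30 genes of the G2 and M phases of the cell cycle tested, 13 were called without drift, against 6.75% of all genes tested, all with peaks between CT02 and CT08, and the median amplitude was 0.18 against 0.09 over all genes. Their summed footprints ran from 14550 and 10180 CPM at CT00 through 14114 and 11847 CPM at CT04 to 11576 and 9652 CPM at CT22. PLK1, a mitotic kinase, read 223 and 268 CPM at CT16 and 432 and 329 CPM at CT04, with an amplitude of 0.26 ± 0.04 and a peak at CT 5.75 (adjusted p = 0.000889). CDC20, an activator of the anaphase-promoting complex, and CCNB1, cyclin B1, had amplitudes of 0.23 ± 0.04 and 0.21 ± 0.04 and peaked at CT 6.1 (adjusted p = 0.000906 and 0.0026). The replicates differed in timing: PLK1 peaked at CT 4.3 in replicate 1 alone and at CT 8.1 in replicate 2 alone, and CCNB1 at CT 4.5 and CT 8.3. With drift none of the 30 was called and 8 had an unadjusted p under 0.05. Without replicate 2 at CT02, 13 were called. In bulk samples such as these, fewer cells in a phase and less RNA per cell cannot be told apart. Of 28 S phase genes 4 were called, against the same 6.75%, with peaks between CT02 and CT08, TYMS (thymidylate synthase) with an amplitude of 0.13 ± 0.02 and RRM2 (ribonucleotide reductase) with 0.15 ± 0.03. None of 10 histone genes was called, and HIST1H1C came nearest (adjusted p = 0.106).

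Proteasome subunits were called in 18 of 31 cases, against 6.75% of all genes, all with peaks between CT02 and CT08, the hours that also hold many of the calls over all genes. Their summed footprints stood at 9927 and 10322 CPM at CT22, below the 12776 and 12717 CPM at CT00. PSMD2, a subunit of the regulatory particle, read 602 and 640 CPM at CT22 and 927 and 926 CPM at CT00, with an amplitude of 0.23 ± 0.04 (adjusted p = 0.00071), and PSMA5 and PSMB7, subunits of the core, had 0.21 ± 0.04 and 0.18 ± 0.03. No proteasome gene was called with drift, and the median amplitude over the list was 0.13 without drift and 0.04 with it. Without replicate 2 at CT02, 15 were called. In total RNA 27 of 32 were called, against 21.9% of all genes.

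The counts of the following lists stand against 6.75% of all genes called. Of 16 NRF2 antioxidant genes 4 were called, with peaks between CT02 and CT08, led by GCLM, a subunit of the glutathione-synthesising enzyme (0.34 ± 0.07, adjusted p = 0.00602). Of 14 heat shock genes 2 were called at those hours, among them HSPA8, a constitutive chaperone (0.19 ± 0.04, adjusted p = 0.00599). Of 19 matrix and osteoblast genes 7 were called, all with peaks between CT14 and CT20, and without replicate 2 at CT02 5 were. COL5A2, a fibrillar collagen, had an amplitude of 0.37 ± 0.06 at CT 16.5 (adjusted p = 0.00258), RUNX2, the bone lineage transcription factor, 0.41 ± 0.08 at CT 16.3 (adjusted p = 0.00384), and COL3A1 0.63 ± 0.13 at CT 17.6 (adjusted p = 0.00742). In the sterol list 3 of 21 were called, with peaks between CT14 and CT20, SREBF2, a regulator of sterol synthesis, with 0.27 ± 0.04 and SCD, a fatty acid desaturase, with 0.27 ± 0.05. Of 13 glucocorticoid-induced genes 3 were called, KLF9 at CT 16.9 and ZBTB16 at CT 16.1 on the rising side, and PER1 at CT 6.4. No aminoacyl-tRNA synthetase (of 20) and no mitochondrial ribosomal protein (of 75) was called, and 2 of 74 respiratory chain subunits were. With drift, and with no term for the replicate, no gene of the lists in this paragraph was called.

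**Figure D3:**
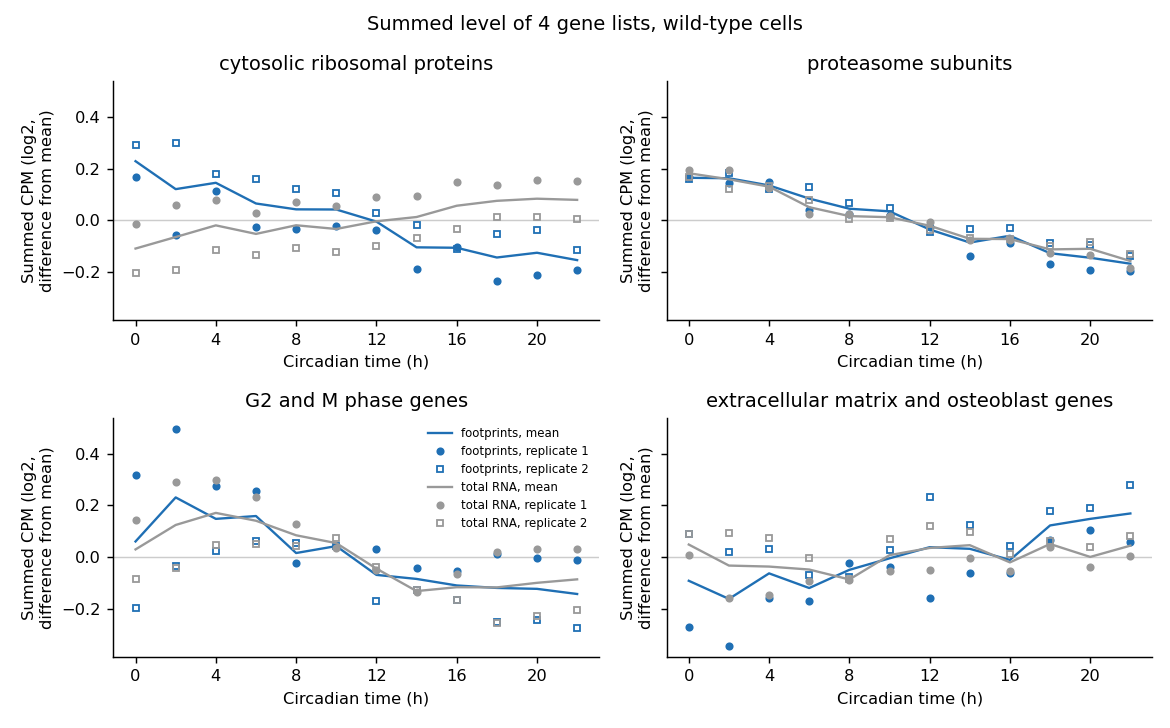
Summed CPM of 4 gene lists at each circadian time (x axis, h) as the log2 difference from the mean of the assay's 24 libraries (y axis), in wild-type footprints (blue) and total RNA (grey); filled circles are replicate 1, open squares replicate 2, lines their mean. Ribosomal protein footprints decline while their total RNA does not, proteasome subunits decline in both assays, G2 and M phase genes are higher early in the day with replicates apart, and matrix footprints are higher late.

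The comparison of footprints with total RNA asks whether ribosome loading adds to the rhythm of the mRNA. Total RNA gave 2892 calls of 13207 without drift (21.9%) and 24 with it (0.182%). Of the 768 genes called in footprints, 597 were also called in total RNA, which is 77.7% of the footprint calls and 20.6% of the total RNA calls. In 593 of these 597 the peaks lay within 4 h, with a median gap of 0.514 h. These are fits without drift, in which 91.7% of footprint calls peaked near CT 5 or CT 17, the times a straight line gives. Genes that drift the same way in both assays share a peak time in such fits, so the small gap does not show a shared rhythm. Thinned to the depth of the footprint library of the same time and replicate, total RNA gave 1298 calls of 11788 without drift (11%) and 12 with it (0.102%).

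None of the 18 clock genes differed in its wave between footprints and total RNA. ARNTL had an amplitude with drift of 0.89 ± 0.12 in footprints and 0.86 ± 0.05 in total RNA, with peaks at CT 19.3 ± 0.43 h and CT 19.5 ± 0.21 h. PER2 had 0.95 ± 0.17 in footprints and 1.00 ± 0.07 in total RNA, and its peak in footprints came 0.03 h before that in total RNA, with an SE of that difference of 0.71 h. For PER3 the peak in footprints came 0.20 ± 0.64 h later. With drift the difference between the waves had an adjusted p of 1 for each of these genes. The standard errors leave room for lags of 1 h or more. NR1D1 had only 0.557 to 2.95 CPM in total RNA, so its total RNA wave rests on few reads. Amplitudes of NR1D2 and TEF were 0.51 ± 0.11 and 0.70 ± 0.15 in footprints against 0.66 ± 0.04 and 1.01 ± 0.10 in total RNA, where both were called with drift. In footprints of both genes the errors were larger.

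**Figure D4:**
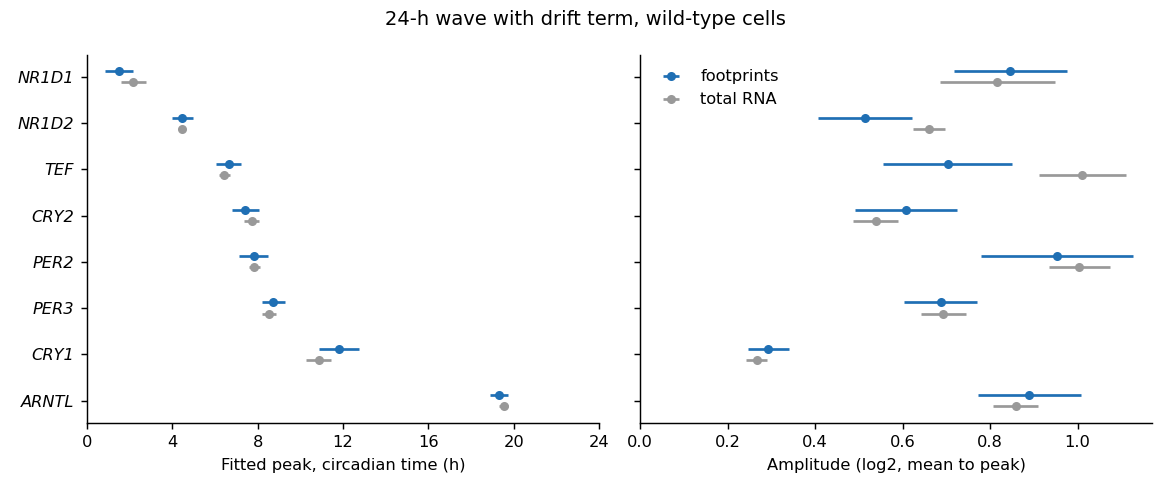
Fitted peak time (left, circadian time in h) and amplitude (right, log2 from mean to peak) of 8 clock genes in the fit with a drift term, in wild-type footprints (blue) and total RNA (grey); bars are 1 standard error. The footprint and total RNA peaks of each gene lie close together, from NR1D1 near CT 2 to ARNTL near CT 19, and the error bars are wider in footprints.

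The wave differed between assays for 3 of 11318 genes (0.0265%), and 365 had an unadjusted p under 0.05. RPL28, a protein of the large ribosomal subunit, read 212 and 217 CPM in footprints at CT22 and 285 and 347 CPM at CT00, and 199 and 230 CPM in total RNA at CT22 and 189 and 182 CPM at CT00. Footprints were thus lower at the later time in both replicates and total RNA was not. The difference between its waves had an amplitude of 0.33 ± 0.06 (adjusted p = 0.00942). For VIM, vimentin of the intermediate filaments, it was 0.17 ± 0.03 (adjusted p = 0.00942), and for GNB2L1, which encodes the ribosomal scaffold RACK1, 0.24 ± 0.04 (adjusted p = 0.0322). All 3 peaked near CT 5 in footprints and between CT 15 and CT 18 in total RNA. When ratios of footprints to total RNA of the same time and replicate were tested with the replicate as a block, none of 11318 genes was called (697 at an unadjusted p of 0.05), and these 3 had adjusted p-values of 0.0778 to 0.0861. With drift none was called either, and without replicate 2 at CT02 GNB2L1 was lost (adjusted p = 0.0548). Among the remaining genes of the 10 with the lowest p were RPS23, RPL37A, RPLP0, RPS15A, EIF3L and GNG10, with adjusted p-values of 0.0587 to 0.0608. Of these GNG10, a G protein subunit with 1.60 to 6.41 CPM in footprints, peaked late in footprints (CT 16.3).

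Of 67 cytosolic ribosomal proteins tested, 64 had a difference of waves, footprints minus total RNA, that peaked between CT02 and CT08, against 24.7% of all genes tested. The median amplitude of the difference was 0.20, against 0.07 over all genes. An unadjusted p under 0.05 was found for 50 of the 67, against 365 of all 11318 genes, although only RPL28 passed the adjusted test. Summed footprints of the list stood at 18200 and 19176 CPM at CT22 and at 23341 and 25423 CPM at CT00, while summed total RNA stood at 66474 and 60056 CPM at CT22 and at 59282 and 51864 CPM at CT00. In footprints alone 17 of 67 were called, against 6.75% of all genes, all with peaks between CT02 and CT08, among them RPL27 (0.17 ± 0.04, adjusted p = 0.00781), and in total RNA 9 of 77, below the 21.9% of all genes. Replicate 1 alone gave 1 call and replicate 2 alone gave 24, and without replicate 2 at CT02 11 were called. A list of other TOP mRNAs and translation factors was counted in the same way. The TOP motif at the start of an mRNA is a sequence through which growth signals control translation, and it was not searched for here. In this list 16 of 18 had a difference peaking between CT02 and CT08, and 14 had an unadjusted p under 0.05, against the same 365 of 11318. The list holds VIM and GNB2L1, 2 of the 3 genes called above, so it is not separate from them. With drift in the fit, 1 ribosomal protein and none of these 18 had an unadjusted p under 0.05 for the difference. Ribosomal protein genes have many near-identical copies, so their counts are uncertain, and RPS10 had no read.

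Set against the wild-type waves, the knockdown footprints had smaller fitted waves for PER2, PER3, CRY1, CRY2, NR1D1 and TEF. The treatment is visible in its target, with ARNTL footprints at 0 to 1.98 CPM in knockdown libraries (median 0.692 CPM, 3 of 24 libraries at 0) and 6.53 to 28.1 CPM in wild-type libraries. The wave differed for 435 of 11572 genes (3.76%) and for 8 of the 18 clock genes tested. PER2 ranged over 19.5 to 40.3 CPM in knockdown libraries and 2.81 to 30.4 CPM in wild-type libraries, with amplitudes without drift of 0.17 ± 0.06 and 0.74 ± 0.13 in that order of groups, and the difference between the waves was 0.79 ± 0.15 (adjusted p = 0.00522). PER3 ranged over 14.5 to 26.3 CPM in knockdown libraries and 23.5 to 97.9 CPM in wild-type libraries, and its difference was 0.53 ± 0.10 (adjusted p = 0.00322). NR1D1 ranged over 4.14 to 7.95 CPM in knockdown libraries and 8.33 to 46.2 CPM in wild-type libraries (difference 0.71 ± 0.13, adjusted p = 0.0029). CRY1, CRY2 and TEF differed by 0.29 ± 0.06, 0.39 ± 0.09 and 0.59 ± 0.12, and these 6 genes were also called with drift in the fit. Without replicate 1, PER3, CRY1, CRY2, NR1D1 and TEF were not called (adjusted p = 0.0628 for TEF to 0.402 for CRY2), and without replicate 2, PER2, CRY2 and TEF were not (adjusted p = 0.0811 for CRY2 to 0.12 for PER2). NFIL3 and WEE1 were called without drift only, and in neither replicate alone, WEE1 with amplitudes of 0.33 ± 0.05 in the knockdown and 0.05 ± 0.04 in wild-type. IFIT1 behaved otherwise: its wave without drift had an amplitude of 0.36 ± 0.10 at CT 11.5 in the knockdown and 0.41 ± 0.07 at CT 11.3 in wild-type, and the difference was 0.06 ± 0.12 (adjusted p = 0.955). Its level did differ, with 3.04 to 8.08 CPM in knockdown libraries and 12.0 to 26.5 CPM in wild-type libraries. Knockdown footprints alone gave 1985 calls of 11216 without drift (17.7%) and 268 with it (2.39%). Without the CT02 library that stands apart 390 genes differed, NFIL3 no longer among them.

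**Figure D5:**
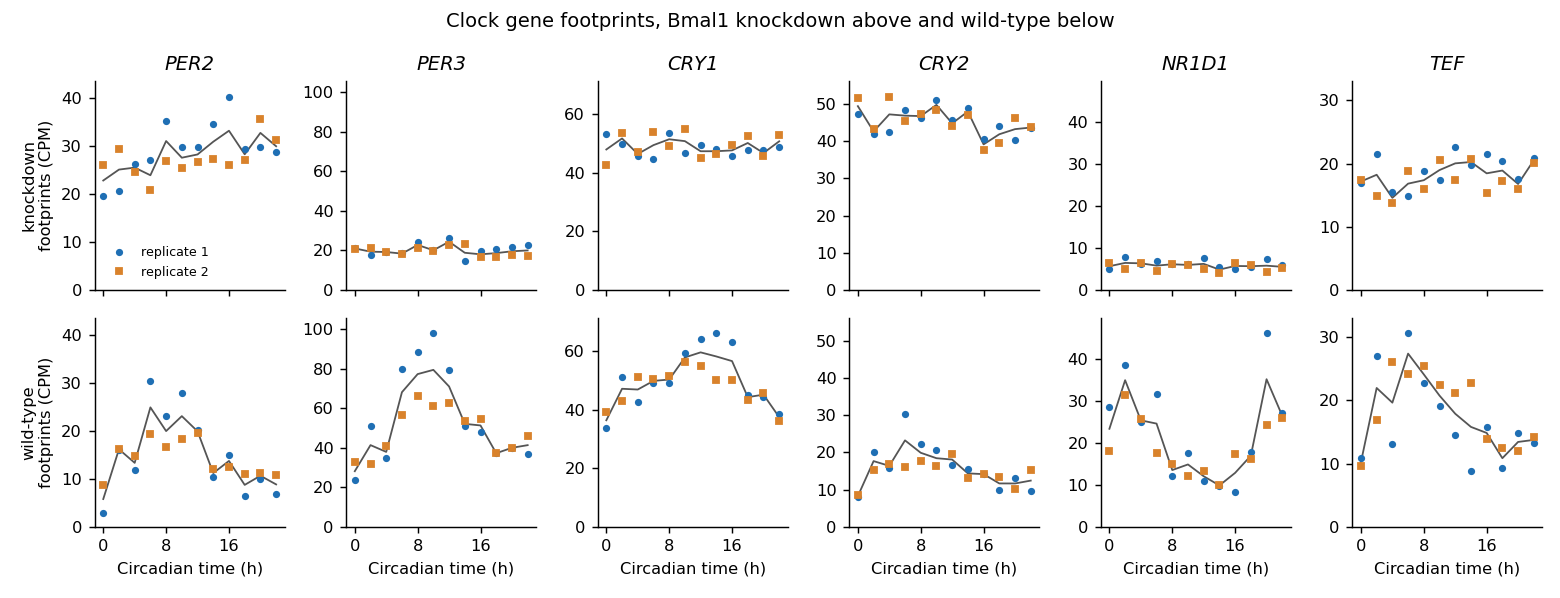
Footprints in CPM (y axes from 0, shared within a gene) of 6 clock genes by circadian time (x axis, h) in Bmal1 knockdown cells (upper row) and wild-type cells (lower row); circles are replicate 1, squares replicate 2 and lines the mean of both. The wild-type curves bend through the day while the knockdown curves of the same genes stay within a narrower band, at higher levels for PER2 and CRY2 and lower levels for PER3 and NR1D1.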

How the data were processed

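The deposited tables hold a signal per gene that the authors made by dividing counts by 1 factor per library: each value was a whole multiple of the library's smallest step (tolerance 0.001) in 100% of cases, so whole reads were recovered. Per the submitters' processing notes, the tools were STAR 2.3.0e, HTSeq 0.5.4p1 and DESeq2, with GRCh37 (hg19). The strand setting is not given in the sources used here. Columns were matched to samples by the circadian time in their names within each table.

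Recovered reads were scaled by TMM in edgeR 4.0.16, filtered with filterByExpr (minimum count 10) and expressed as log2 (CPM + 0.25). Limma-trend 3.58.1 in R 4.3.3, with robust variances, tested the 24-h cosine and sine together with an F test, Benjamini-Hochberg adjusted over all genes tested. The wave was compared between assays and between knockdown and wild-type by interaction terms. The scripts were tested on simulated data. Alternatives were edgeR's quasi-likelihood test, the DESeq2 1.42.0 likelihood ratio test, other scalings, filters and pseudocounts, a 12-h harmonic, drift, the replicate as a block, and leaving out each replicate and each time. Leaving out replicate 2 at CT02 was chosen after seeing the data.

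Total RNA was also thinned at random to the reads of the footprint library of the same time and replicate. Footprint and total RNA libraries with the same number and time deviated together in 12 of 12 pairs (correlation 0.20 to 0.42), so the paired fit is given beside that comparison; libraries of other times did so in 132 of 132 pairs (0.13 to 0.38).

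Genes named are all clock genes, the 12 largest amplitudes called with and without drift (mean log2 CPM of at least 1, replicate peaks within 4 h), the 10 lowest p for the difference between assays, and the 3 lowest p per list; any other was chosen after its values were seen. A few genes that the rule names are not reported here. Members and lists were chosen with earlier results of these data known. Lists not described in the results were clock kinases (1 of 12 called), immediate early genes (1 of 11), p53 targets (1 of 18), initiation factors (3 of 26), ATF4 targets (2 of 26), endoplasmic reticulum chaperones (2 of 18), cold-inducible proteins (0 of 3), hypoxia genes (2 of 25), epithelial markers (0 of 2), blood markers (1 of 2) and neuronal markers (1 of 6). These counts are from the fit without drift, in which 6.75% of all genes tested were called.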

Additional observations from a re-analysis of the deposited data

Results flagged for a closer look

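For 8 of the 18 clock genes tested the wave differed between knockdown and wild-type footprints by a test of the difference itself. Over all genes tested it differed for 435 of 11572 (3.76%). The amplitude of that difference, on the log2 scale, was 0.790 for PER2, 0.526 for PER3, 0.291 for CRY1, 0.385 for CRY2, 0.710 for NR1D1, 0.587 for TEF, 0.252 for NFIL3 and 0.274 for WEE1. For 3 of 11318 genes (0.0265%) the wave differed between footprints and total RNA in the same way of testing. The amplitudes of that difference were 0.236 for GNB2L1, 0.326 for RPL28 and 0.172 for VIM. With drift in the fit, NFIL3, WEE1 and these 3 genes were not called. NFIL3 and WEE1 were called in neither replicate alone, and paired ratios called none of the 3. Seeding and transfection move with the knockdown and cannot be told apart from it.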

How the results depend on the processing

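With the replicate as a block, the wave was called in 1346 genes, all 768 among them, the wave with drift in 14, the difference between assays in 54 and that between knockdown and wild-type in 729. Replicate differences of wild-type footprints correlated between times at -0.03 to 0.45 (median 0.23), 60 of 66 pairs being over 0.1, so same-numbered libraries tended to deviate together, though not in every pair and with no pairing given by the labels. The block with drift also called TEF and SCD (adjusted p = 0.028 and 0.0272). Without drift it called 5 of 75 mitochondrial ribosomal proteins, against 11.8% of all genes tested in that fit. A drift term left 7 genes with a wave (14 with the block), 0 with a difference between assays and 63 with one between knockdown and wild-type. DESeq2 called 13 genes with drift. The difference between assays was called in 0 genes from paired ratios with the block, 16 with the deposited scaling, and 7 each with median-ratio scaling, a mean log2 CPM of at least 3 or edgeR. Leaving out a replicate, a time or a library gave 135 (without replicate 2) to 818 (without CT22) genes for the wave, with 285 without CT04, 314 without CT18, 372 without CT20 and 477 without replicate 1. It gave 3 (without CT00) to 59 (without replicate 2) with drift, 14 without replicate 1 and 4 without CT12. It gave 0 (without replicate 2) to 23 (without replicate 1) for the assays, and 84 (without replicate 1) to 390 (without replicate 2 at CT02) for the knockdown, with 130 without replicate 2. The causes were not tested. With 1 day sampled and few reads for weak genes, waves near CT 5 and CT 17 cannot be told apart from drift.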
